A study of Mus musculus with 9 samples.

Results

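The genes described here are 50 cell cycle and proliferation genes, chosen by gene symbol. Of the 50, 48 were measured, out of 17097 genes in all, and Ccnb1 and Nuf2 were not analysed here. The cells were primary murine microglia, the resident macrophages of the brain, taken from cortices of newborn (P0-P2) C57BL/6J mice and grown in medium with fetal bovine serum. Glioma-conditioned medium (GCM) is medium that cultured glioma cells have conditioned, and it carries what those cells secrete. The groups were microglia kept for 6 h in GCM from LN18 cells, microglia kept for 6 h in GCM from U87-MG cells (written GCM U87, as in the labels) and control microglia left untreated, with 3 arrays each. LN18 and U87-MG are established human glioblastoma lines. Whether the control cells had a change of medium is not given in the sources used here. Each culture was read on 1 array of the type MG-430 PM strip (Affymetrix), and all values are log2 signals as deposited, so that a difference of 1 is a 2-fold difference. Levels were compared between groups within a gene and not between genes, because probe sets differ in brightness. The comparison asks whether 6 h in either medium changed the levels of these genes.

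A dividing cell passes from G1, where D-type cyclins and E2F factors commit it to division, through S phase, where the MCM helicase opens DNA for copying, to mitosis, where kinases, motors and kinetochore proteins part the chromosomes. Genes of S phase are typically switched on by E2F factors, while genes of mitosis are typically controlled through a CHR element and CCAAT boxes in their promoters, bound by the DREAM and MuvB complexes and by NF-Y. Microglia keep their own numbers by slow local division, which rises in injury and disease, and they divide readily in neonatal culture. In RNA of a whole culture, a different share of dividing cells and a different RNA level per cell cannot be told apart.

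The promoters of 5 members are shown as examples of helicase and mitotic members with the motifs searched. Each is the 160 bases before the RefSeq start (build GRCm38.p6), 5′ to 3′ on the gene's strand, with E2F sites, CHR elements and CCAAT boxes in capitals.
Mcm5 (a subunit of the MCM helicase), chr8:75109349-75109508, plus strand: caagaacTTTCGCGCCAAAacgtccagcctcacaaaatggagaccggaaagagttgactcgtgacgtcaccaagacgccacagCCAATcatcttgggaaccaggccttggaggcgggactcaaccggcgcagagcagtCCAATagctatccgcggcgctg
Mcm6 (a subunit of the MCM helicase), chr1:128359706-128359865, minus strand: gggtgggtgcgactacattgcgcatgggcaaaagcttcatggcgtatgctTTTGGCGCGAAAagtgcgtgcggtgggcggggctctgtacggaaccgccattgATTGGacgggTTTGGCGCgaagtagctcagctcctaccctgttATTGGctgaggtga
Cdk1 (the kinase that drives entry into mitosis), chr10:69352913-69353072, minus strand: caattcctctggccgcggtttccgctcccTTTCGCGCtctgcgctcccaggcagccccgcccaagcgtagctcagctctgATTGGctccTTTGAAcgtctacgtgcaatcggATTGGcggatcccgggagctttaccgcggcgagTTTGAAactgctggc
Cdc20 (an activator of the anaphase-promoting complex), chr4:118437344-118437503, minus strand: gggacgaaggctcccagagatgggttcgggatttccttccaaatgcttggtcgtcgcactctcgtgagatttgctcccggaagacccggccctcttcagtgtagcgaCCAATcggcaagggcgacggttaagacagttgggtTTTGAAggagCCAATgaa
Mki67 (the Ki-67 protein, which coats mitotic chromosomes), chr7:135716380-135716539, minus strand: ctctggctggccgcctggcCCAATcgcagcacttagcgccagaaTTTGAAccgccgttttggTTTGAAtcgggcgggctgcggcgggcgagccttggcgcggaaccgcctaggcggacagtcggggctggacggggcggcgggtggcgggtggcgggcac

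The letters searched were TTTCGCGC, TTTGGCGC, TTTCCCGC and TTTGCCGC for an E2F site, TTTGAA and TTCGAA for a CHR element, and CCAAT for a CCAAT box, on both strands, in the 300 bases from 250 before to 50 after each start. A RefSeq promoter was found for 40 of the 48 members and for 13514 of all measured genes. In Mcm5 and Mcm6 the longer run in capitals is a pair of E2F matches on opposite strands that overlap, so it is a single stretch of DNA. Of 29 members with mitotic roles, 25 (86.2%) held a CHR element, against 17.5% of all genes. Of the 5 Mcm genes with a promoter, 4 (80.0%) held an E2F site, against 3.78% of all genes; the only other member with one was Cdk1. A CCAAT box was in 30 of the 40 members (75.0%), against 42.3% of all genes. Neither an E2F site nor a CHR element was found in Pcna, Rrm2, Tyms, Tk1, Ccne1 or E2f1, nor in the mitotic members Birc5, Cenpe, Nusap1 and Melk. A match is a description of the letters and does not show that a factor was bound. Only these exact letters were searched, so the lack of a match does not show that a promoter has no such site.

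As a rough guide to signal, with no background threshold, the mean log2 signal of 47 of the 48 members lay above 4.34, the median over all genes, the exception being Kif23 at 3.72. Microglial markers were high on these arrays, with 9 of 11 above that median and a median of 10.07, although Tmem119 was between 3.64 and 4.96. Median signals of the markers of astrocytes (3.02), the oligodendrocyte lineage (3.21), neurons (2.40), and fibroblasts and endothelium (2.70) lay below it. Border and blood macrophage markers had a median of 4.18, with Mrc1, a mannose receptor of border macrophages, at 9.07 and the chemokine Pf4 at 9.17. The others measured, Lyve1 (2.32), Cd163 (2.65) and Ccr2 (4.18), lay below 4.34. Aif1, Cx3cr1, Tmem119, Fcrls and C1qa were higher and Mrc1 lower in GCM LN18 than in control cultures, and Cx3cr1 and Fcrls were higher in GCM U87 (limma, adjusted p under 0.05; for Cx3cr1 in both media and Tmem119 also with the replicate block described next). The part of these markers in the results below was not tested.

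The values carry a feature that touches every result. For 100% of probe sets, the 3 arrays of a replicate number had the same mean as the 3 arrays of each other number, within 1e-06. A mean per replicate had therefore been equalized before deposit, and a gene that is low on 1 array of a replicate number is necessarily raised on the others of that number. Taking off a mean leaves differences between arrays of the same number as they were, though whether the step did more than that is not given. A fit of groups alone counts 6 residual degrees of freedom where the values hold 4, so its p-values are too small, and a second fit, in which each replicate number is a block, stands beside it. The labels do not say whether a number marks 1 culture in all groups.

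None of the 48 members, each read by its brightest probe set, passed the test after 6 h in either medium. At an adjusted p under 0.05 (limma, Benjamini-Hochberg over 17097 genes), no member was called in GCM LN18 (0 higher, 0 lower), where 5.23% of all genes were called, and 0 were called in GCM U87, where 1.51% were. With the replicate block 0 members were called as well, and the share of all genes was 0.877% in GCM LN18 and 0.0468% in GCM U87. At an unadjusted p under 0.05, 11 members (22.9%) passed in GCM LN18, against 20.6% of all genes, and 13 (27.1%) in GCM U87, against 17.0%. With the block these were 6 members (12.5%) in GCM LN18, against 12.2% of all genes, and 7 (14.6%) in GCM U87, against 9.12%. The lowest adjusted p of a member in GCM LN18 was 0.0898, for Aurka, a kinase of the spindle poles, and in GCM U87 it was 0.125, for Ttk, the Mps1 kinase of the spindle checkpoint. With the block the lowest were 0.248 for Tk1 in GCM LN18 and 0.414 for Ttk in GCM U87.

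A small upward lean was shared by nearly all members. The median log2 fold change was 0.17 in GCM LN18 (1.13-fold) and 0.19 in GCM U87 (1.14-fold), while the medians over all genes were -0.004 and -0.003. In each medium 45 of the 48 values were above 0, against 48.5% of all genes in GCM LN18 and 48.7% in GCM U87. Values ran from -0.13 for E2f1 to 0.38 for Cenpf in GCM LN18, and from -0.04 for E2f1 to 0.40 for Mcm5 in GCM U87. Ccne1, Rrm2 and E2f1 were the members below 0 in GCM LN18, and Aurkb, Cdca3 and E2f1 in GCM U87. Both comparisons use the same 3 control arrays, so the lean in one medium does not add to that in the other. The 95% interval of a member's log2 fold change had a median width of 0.47, or 0.54 with the block, and the highest upper bound with the block was that of Mcm3, 0.83 in GCM LN18 and 1.0 in GCM U87. These intervals do not show that the genes stayed the same.

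**Figure D1:**
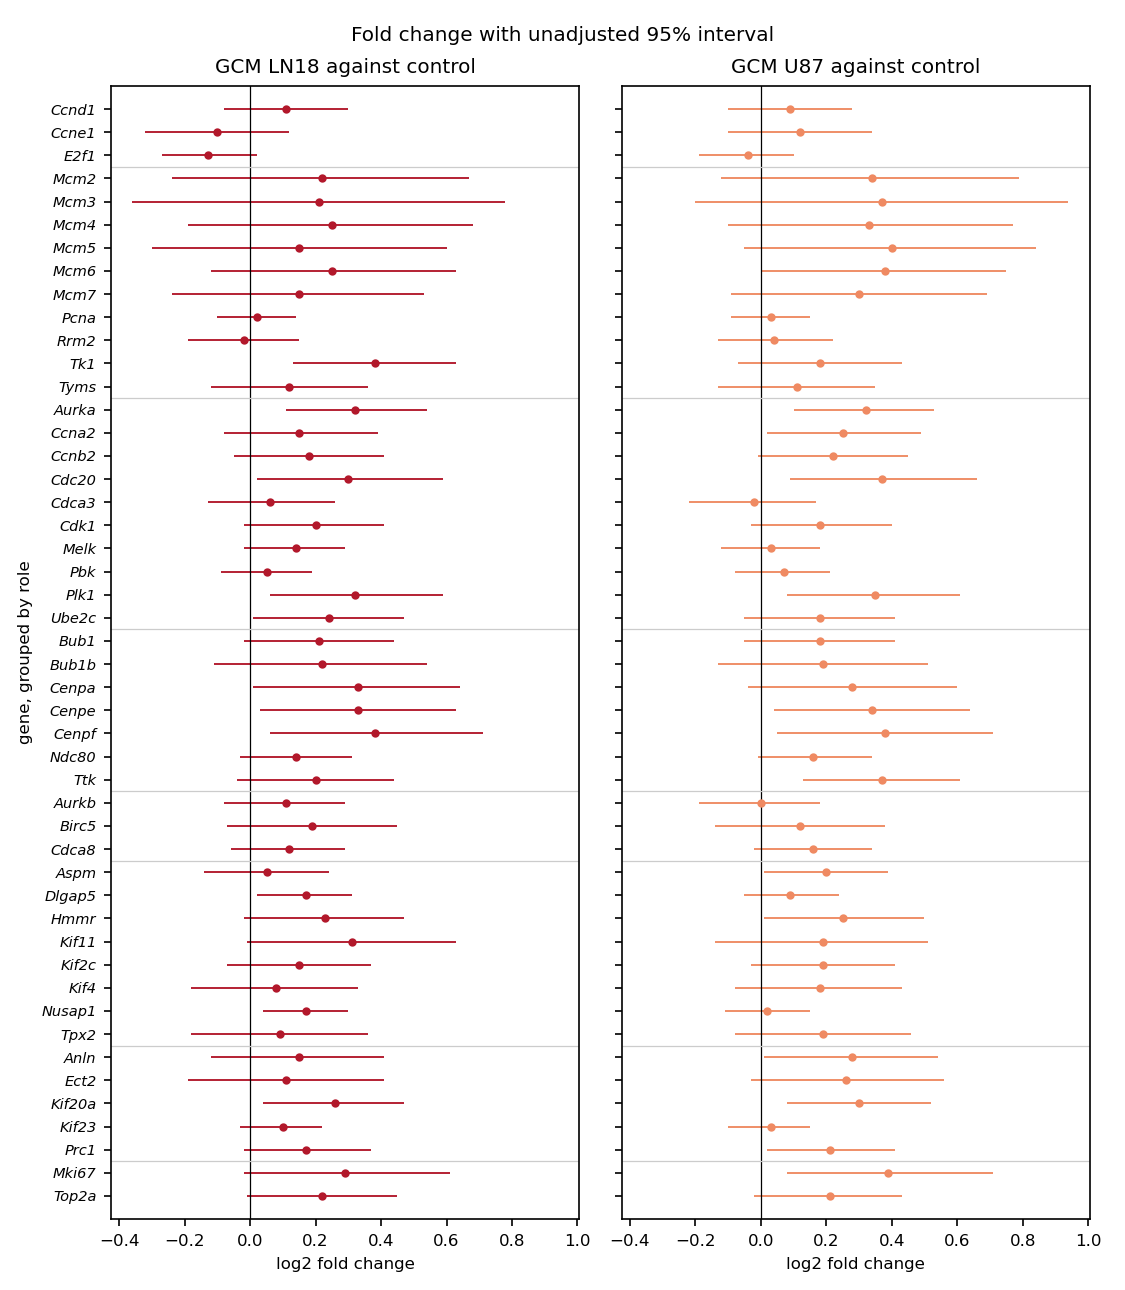
Log2 fold change of each of the 48 members (rows, grouped by role) in GCM LN18 against control (left) and GCM U87 against control (right), with unadjusted 95% intervals from the fit of groups alone. Of the points, 45 lie above 0 in each medium, no member was called, and the widest intervals are those of the Mcm genes.

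The lean rested largely on replicate 1. Control replicate 1 was the lowest of the 9 arrays for 44 of the 48 members, against 17.1% of all genes, and its median deviation from the members' own means was -0.36. GCM U87 replicate 1 was the highest array for 29 members and GCM LN18 replicate 1 for 14, and with equalized replicate means a low control array and high GCM arrays of 1 number cannot be told apart. Over all genes the median deviation of control replicate 1 was -0.001, and its median absolute deviation, 0.068, was the highest of the 9 arrays, which ranged from 0.043. Without control replicate 1, the members' median was 0.07 in GCM LN18 and 0.10 in GCM U87. Without the GCM array of replicate 1 it was 0.13 in GCM LN18 and 0.14 in GCM U87, and without all 3 arrays of replicate 1 it was 0.03 in both. The members also varied more within groups than all genes did, with a median SD (n = 3 arrays) of 0.09 in GCM LN18, 0.15 in GCM U87 and 0.19 in control, against 0.06, 0.07 and 0.07 over all genes. Nearly all members were brighter than the median gene, and their SD was not compared with that of genes of like brightness.

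**Figure D2:**
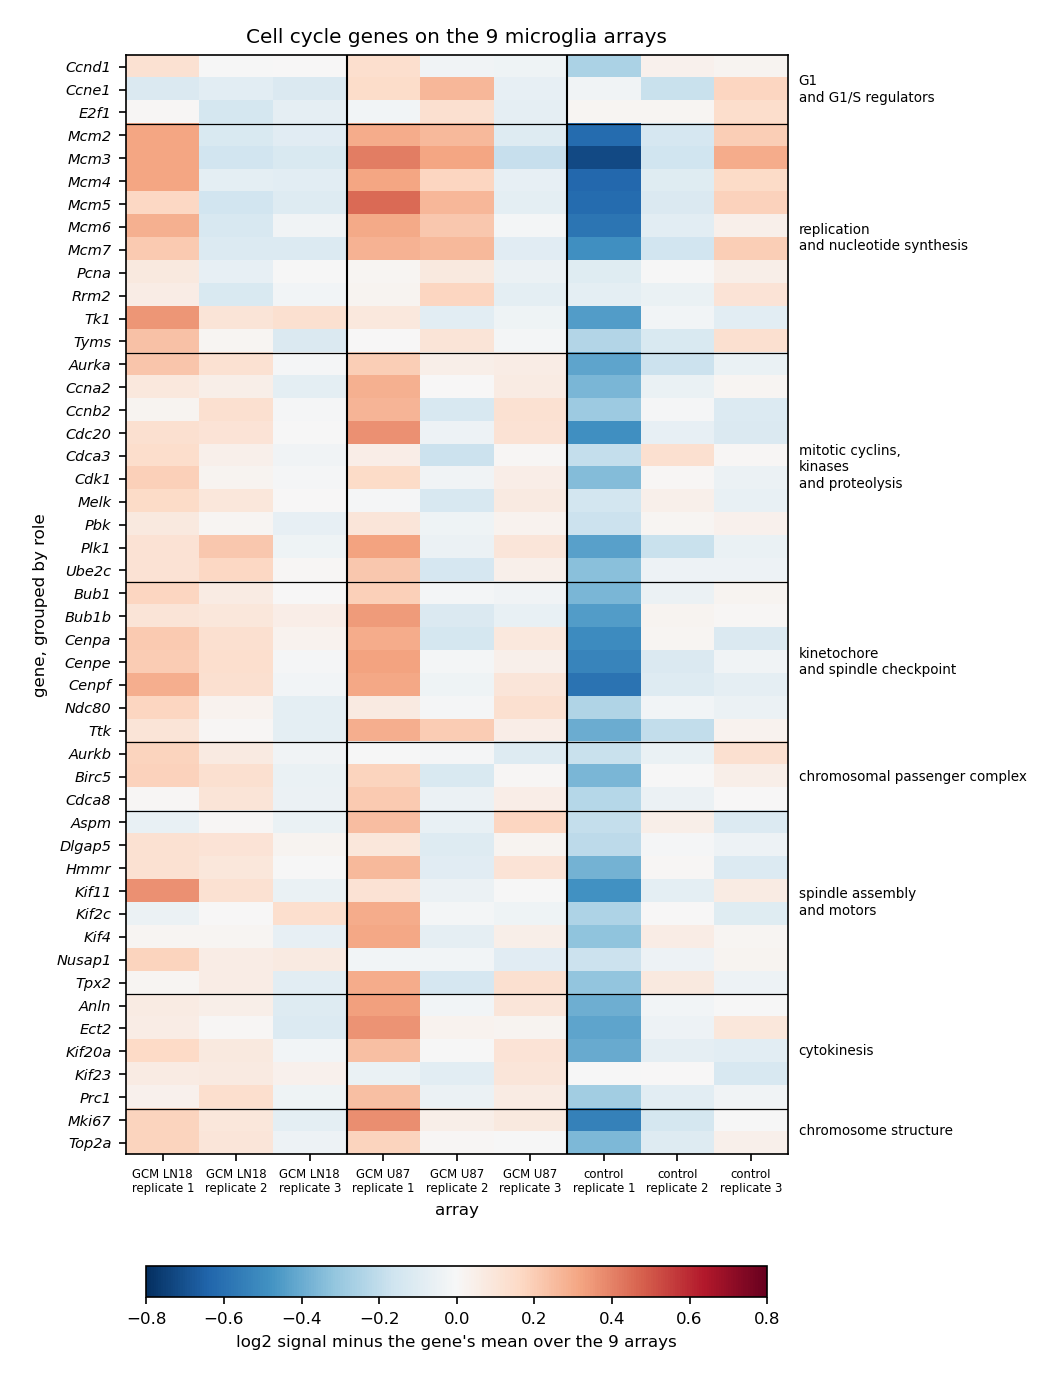
Deviation of each member's log2 signal from its own mean over the 9 arrays (colour), by gene (rows, grouped by role) and array (columns). The blue column is control replicate 1, the lowest array for 44 of the 48 members, and Kif23, E2f1, Ccne1, Rrm2 and Pcna show the least colour in it.

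Compared within a replicate number, the excess over control was largest in replicate 1. The median of GCM LN18 minus control over the 48 members was 0.47 in replicate 1, 0.08 in replicate 2 and -0.04 in replicate 3, with 46, 36 and 19 members above 0. The median of GCM U87 minus control was 0.56, 0.03 and 0.04, with 46, 30 and 26 members above 0. In GCM LN18, 17 of the 48 members exceeded control within all 3 replicates, against 14.7% of all genes. In GCM U87, 13 of the 48 did, against 11.2%. Cdc20, Plk1, Aurka, Kif20a, Cenpe and Cenpf did so in both media, which were compared with the same control arrays. The share of all genes that did so in both media was not counted. Without the pairing by number, all 3 GCM LN18 arrays lay above all 3 control arrays for 13 of the 48 members, a pattern shown by 11.1% of all genes. All 3 GCM U87 arrays did so for 9 of the 48, against 8.79% of all genes.

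**Figure D3:**
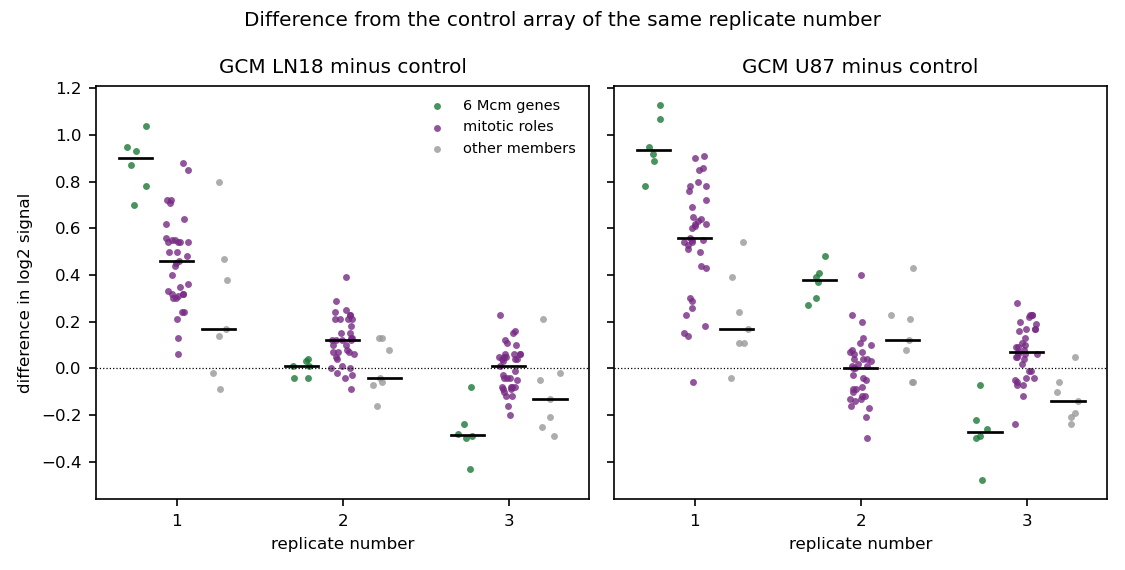
Difference in log2 signal between a GCM array and the control array of the same replicate number (vertical axis) for replicates 1 to 3 (horizontal axis), GCM LN18 on the left and GCM U87 on the right, with each point 1 member and black bars the medians. The Mcm genes (green) are highest in replicate 1 and all below 0 in replicate 3 in both media, while the mitotic genes (purple) have medians of 0.46, 0.12 and 0.01 in GCM LN18 and 0.56, 0.00 and 0.07 in GCM U87.

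The 3 G1 and G1/S members had no common direction, with 1 above 0 in GCM LN18 and 2 in GCM U87. Ccnd1, the cyclin D1 that answers to growth factors, measured 11.17, 11.04 and 11.05 in GCM LN18, 11.18, 11.02 and 11.01 in GCM U87, and 10.79, 11.08 and 11.07 in control (log2 signal, replicates 1, 2 and 3, the order used throughout). Apart from the low control replicate 1, its arrays were close together, and its log2 fold changes were 0.11 ± 0.08 (SE) in GCM LN18 and 0.09 ± 0.08 in GCM U87. Ccne1, the cyclin E1 that partners Cdk2 at the start of S phase, measured 5.42, 5.45 and 5.42 in GCM LN18, 5.68, 5.80 and 5.47 in GCM U87, and 5.51, 5.36 and 5.71 in control. The control arrays spanned the GCM LN18 arrays and overlapped the GCM U87 arrays, and its values were -0.10 ± 0.10 (adjusted p = 0.614) in GCM LN18 and 0.12 ± 0.10 (adjusted p = 0.564) in GCM U87. E2f1, the activating E2F factor of the G1/S switch, measured 6.40, 6.25 and 6.32 in GCM LN18, 6.37, 6.52 and 6.32 in GCM U87, and 6.41, 6.41 and 6.53 in control. It was the only member whose 3 GCM LN18 arrays all lay below all 3 control arrays, by 0.01 at the closest, with a log2 fold change of -0.13 ± 0.06 (adjusted p = 0.299). A dimmer probe set of E2f1 did not separate them, with 5.42, 5.10 and 5.22 in GCM LN18 and 5.11, 5.23 and 5.67 in control. Its log2 fold change was -0.09 in GCM LN18 and 0.11 in GCM U87.

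The 10 replication and nucleotide synthesis members held the largest differences between arrays and none that passed the test. Their median log2 fold change was 0.18 in GCM LN18 and 0.32 in GCM U87. The 6 measured subunits of the MCM helicase, Mcm2 to Mcm7, moved together from array to array. Mcm2 measured 7.57, 7.13 and 7.16 in GCM LN18, 7.55, 7.51 and 7.15 in GCM U87, and 6.64, 7.12 and 7.45 in control. Mcm5 measured 7.28, 6.96 and 7.01 in GCM LN18, 7.57, 7.38 and 7.04 in GCM U87, and 6.5, 7.0 and 7.30 in control. For both genes control replicate 1 was the lowest array, and control replicate 3 lay among the higher ones. Mcm3, named after its values were seen because its range was the widest, measured 7.17, 6.70 and 6.73 in GCM LN18, 7.26, 7.17 and 6.67 in GCM U87, and 6.13, 6.69 and 7.15 in control.

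The direction of the Mcm genes turned between replicates. Within replicate 1, Mcm3 was 1.04 above control in GCM LN18 (2.06-fold) and 1.13 above it in GCM U87 (2.19-fold), and within replicate 3 it was -0.43 and -0.48 relative to control. Over the 6 genes, the median of GCM LN18 minus control was 0.90, 0.01 and -0.29 in replicates 1, 2 and 3, and that of GCM U87 minus control was 0.93, 0.38 and -0.27. In replicate 3, 0 of the 6 were above control in either medium. Their fitted log2 fold changes ran from 0.15 to 0.25 in GCM LN18, with a lowest adjusted p of 0.438, and from 0.30 to 0.40 in GCM U87, with a lowest adjusted p of 0.295. Without all 3 arrays of replicate 1 the median of the 6 was -0.13 in GCM LN18 and 0.05 in GCM U87.

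The other 4 replication genes were Pcna, Rrm2, Tk1 and Tyms. Pcna, the sliding clamp of the replication fork, measured 11.71, 11.57 and 11.63 in GCM LN18, 11.65, 11.71 and 11.59 in GCM U87, and 11.54, 11.63 and 11.68 in control. Its arrays overlapped throughout, and its log2 fold change was 0.02 ± 0.05 (95% interval -0.10 to 0.14) in GCM LN18 and 0.03 ± 0.05 (-0.09 to 0.15) in GCM U87. Rrm2, the regulated subunit of ribonucleotide reductase, measured 8.49, 8.31 and 8.41 in GCM LN18, 8.45, 8.6 and 8.35 in GCM U87, and 8.35, 8.38 and 8.54 in control. It differed from control by -0.02 ± 0.08 in GCM LN18 and 0.04 ± 0.08 in GCM U87. A dimmer probe set of Rrm2 had 0.18 in GCM LN18 and 0.01 in GCM U87. Tk1, the thymidine kinase that recycles thymidine for DNA synthesis, measured 7.58, 7.33 and 7.35 in GCM LN18, 7.31, 7.14 and 7.19 in GCM U87, and 6.78, 7.20 and 7.14 in control. All 3 GCM LN18 arrays of Tk1 lay above all control arrays, while its GCM U87 arrays overlapped them. Its log2 fold change was 0.38 ± 0.11 in GCM LN18 (adjusted p = 0.09, 0.248 with the block) and 0.18 ± 0.11 in GCM U87 (adjusted p = 0.454). Tyms, thymidylate synthase, had 0.12 in GCM LN18 and 0.11 in GCM U87. Within replicates 1, 2 and 3 it was 0.47, 0.13 and -0.25 relative to control in GCM LN18, and 0.24, 0.23 and -0.14 in GCM U87.

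The 35 measured members with mitotic roles were all above 0 in GCM LN18, and 33 of them were in GCM U87, with medians of 0.18 and 0.19. Among the cyclins, kinases and proteolysis factors, Cdk1 measured 9.26, 9.09 and 9.06 in GCM LN18, 9.22, 9.04 and 9.12 in GCM U87, and 8.72, 9.08 and 9.02 in control. Ccna2, the cyclin A2 of S phase and early mitosis, measured 8.52, 8.48 and 8.36 in GCM LN18, 8.72, 8.44 and 8.50 in GCM U87, and 8.07, 8.38 and 8.45 in control. In both genes control replicates 2 and 3 lay at or near the lower GCM arrays, and control replicate 1 lay apart. The log2 fold changes were 0.20 ± 0.10 for Cdk1 and 0.15 ± 0.10 for Ccna2 in GCM LN18, and 0.18 ± 0.10 for Cdk1 and 0.25 ± 0.10 for Ccna2 in GCM U87, with adjusted p-values between 0.262 and 0.444. Cdc20, whose promoter is printed above, had 7.51, 7.49 and 7.38 in GCM LN18, 7.75, 7.34 and 7.5 in GCM U87, and 6.89, 7.32 and 7.27 in control. Every GCM array of Cdc20 was above every control array, if by only 0.07 at the closest in GCM LN18 and 0.02 in GCM U87, and its log2 fold change was 0.30 ± 0.13 (adjusted p = 0.214) in GCM LN18 and 0.37 ± 0.13 (adjusted p = 0.18) in GCM U87. Cdca3, a trigger of mitotic entry, measured 8.51, 8.41 and 8.34 in GCM LN18, 8.42, 8.20 and 8.38 in GCM U87, and 8.18, 8.50 and 8.38 in control, so that the groups overlapped. The polo-like kinase Plk1 had 0.32 in GCM LN18 and 0.35 in GCM U87, and Aurka had 0.32 in each. Ccnb2, Melk, Pbk and Ube2c lay between 0.05 and 0.24 in GCM LN18 and between 0.03 and 0.22 in GCM U87.

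Among the kinetochore and checkpoint members, Cenpf had the highest log2 fold change in both media. Cenpf, a large coiled-coil protein of the outer kinetochore, measured 6.41, 6.25 and 6.10 in GCM LN18, 6.43, 6.09 and 6.22 in GCM U87, and 5.53, 6.02 and 6.05 in control. All GCM arrays were above all control arrays, by 0.05 at the closest, and the log2 fold change was 0.38 ± 0.14 in each medium (adjusted p = 0.173 in GCM LN18 and 0.228 in GCM U87). Cenpe, the kinesin that carries chromosomes to the spindle equator, measured 6.89, 6.82 and 6.68 in GCM LN18, 7.01, 6.67 and 6.73 in GCM U87, and 6.16, 6.57 and 6.66 in control. The groups were again separate, by 0.01 at the closest, and the log2 fold change was 0.33 ± 0.13 (adjusted p = 0.205) in GCM LN18 and 0.34 ± 0.13 (adjusted p = 0.244) in GCM U87. Ttk had 0.20 in GCM LN18 and 0.37 in GCM U87, and Bub1, Bub1b, Cenpa and Ndc80 lay between 0.14 and 0.33 in GCM LN18 and between 0.16 and 0.28 in GCM U87.

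A second, dimmer probe set of Cenpe separated the groups more widely. It measured 6.5, 6.51 and 6.55 in GCM LN18, 6.46, 6.34 and 6.20 in GCM U87, and 5.76, 5.88 and 5.98 in control. Every GCM array exceeded every control array of this probe set, by at least 0.52 in GCM LN18 and 0.23 in GCM U87, in all 3 replicates. Its log2 fold change was 0.65 ± 0.07 in GCM LN18 (1.57-fold, adjusted p = 0.00304 over 28898 probe sets, 0.0256 with the block) and 0.47 ± 0.07 in GCM U87 (1.39-fold, adjusted p = 0.0285, 0.196 with the block). Of 86 probe sets of the members, it was the only one called in either medium, where 4.33% of all probe sets were called in GCM LN18 and 0.948% in GCM U87 (0.574% and 0.0208% with the block), and it was picked out after the values were seen. The brighter probe set of Cenpe, given above, was not called, so the gene's 2 probe sets differ in their result. The 38 probe sets that were not the brightest of their gene, from 27 members, had the sign of the brighter one in 26 cases in GCM LN18 and in 30 in GCM U87.

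**Figure D4:**
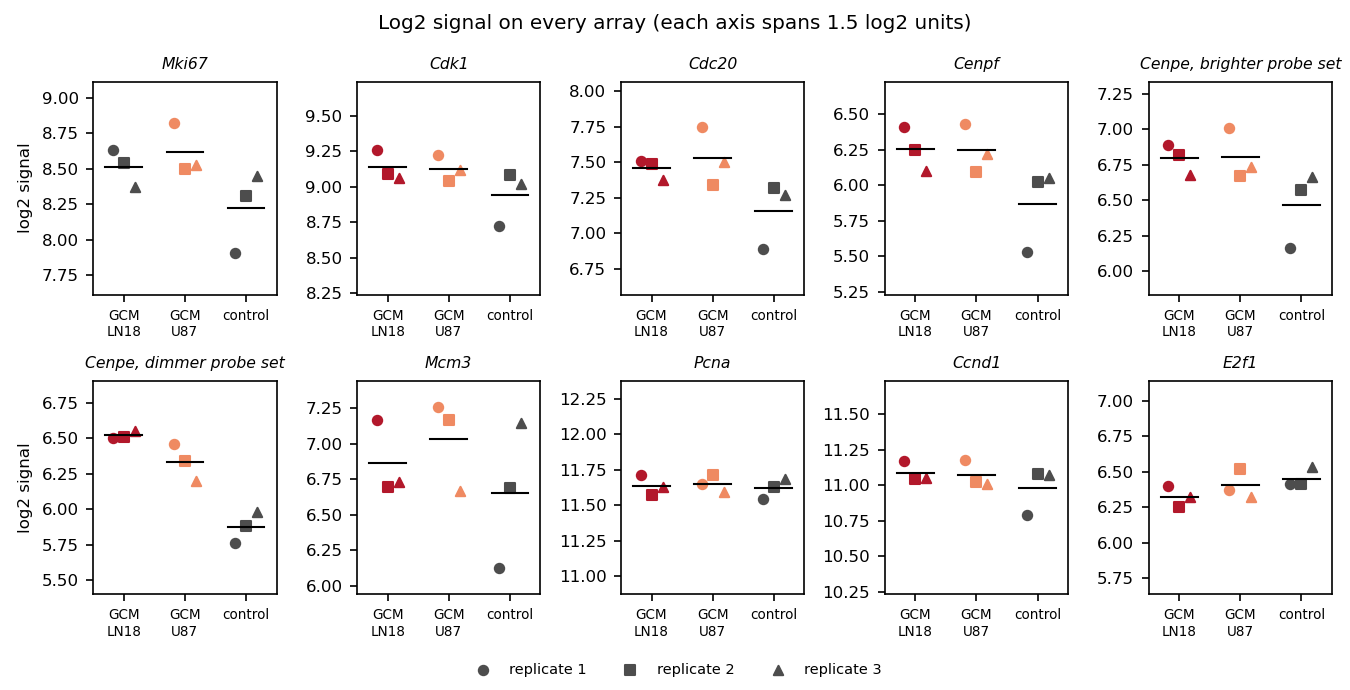
Log2 signal (vertical axes, each spanning 1.5 log2 units) on every array of GCM LN18, GCM U87 and control for 9 members, Cenpe with both of its probe sets, with marker shapes for replicate numbers and bars for group means. Control replicate 1 (grey circle) is the lowest array of Mki67, Cdk1, Cdc20, Cenpf, Mcm3 and Ccnd1, and of these panels the dimmer probe set of Cenpe has the widest gap between GCM and control arrays.

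The remaining mitotic members did not pass the test either. Aurkb, the kinase of the chromosomal passenger complex, measured 7.03, 6.92 and 6.82 in GCM LN18, 6.85, 6.84 and 6.75 in GCM U87, and 6.67, 6.80 and 6.98 in control. Its groups overlapped in both media, and its partners Birc5 (survivin) and Cdca8 (borealin) had 0.19 and 0.12 in GCM LN18, and 0.12 and 0.16 in GCM U87. The spindle assembly factors and motors Kif2c, Kif4, Kif11, Nusap1, Tpx2, Aspm, Dlgap5 and Hmmr lay between 0.05 (Aspm) and 0.31 (Kif11) in GCM LN18, and between 0.02 (Nusap1) and 0.25 (Hmmr) in GCM U87. A dimmer probe set of Aspm (mean 4.54) had 0.47 ± 0.14 in GCM LN18 (adjusted p = 0.103 over all probe sets). In GCM U87 it had 0.38 ± 0.14 (adjusted p = 0.224). The dimmest probe set of Aspm (mean 2.69) had 0.01 in GCM LN18 and -0.05 in GCM U87. Of the cytokinesis genes Kif20a, Kif23, Prc1, Anln and Ect2, the highest in both media was Kif20a, the kinesin that brings passenger proteins to the midzone, with 0.26 in GCM LN18 (adjusted p = 0.170) and 0.30 in GCM U87 (adjusted p = 0.160). Mki67 measured 8.63, 8.54 and 8.37 in GCM LN18, 8.82, 8.5 and 8.53 in GCM U87, and 7.91, 8.31 and 8.45 in control. Top2a, the topoisomerase that untangles chromosomes, measured 8.86, 8.78 and 8.64 in GCM LN18, 8.86, 8.69 and 8.68 in GCM U87, and 8.32, 8.58 and 8.72 in control. In GCM LN18 both genes had 1 array below control replicate 3, and the log2 fold changes were 0.29 ± 0.14 for Mki67 and 0.22 ± 0.10 for Top2a. In GCM U87 they were 0.39 ± 0.14 (adjusted p = 0.198) for Mki67 and 0.21 ± 0.10 (adjusted p = 0.337) for Top2a.

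No member passed the test between the media. Between GCM LN18 and GCM U87, 0 members were called, against 0.00585% of all genes, or 0.0% with the block, and the median log2 difference was -0.02. At an unadjusted p under 0.05, 2 members (4.17%) passed, Ccne1 at -0.22 (adjusted p = 0.416) and Nusap1 at 0.15 (adjusted p = 0.360), against 12% of all genes, and 0 passed with the block, against 5.06%. The extremes were Mcm5 at -0.25 ± 0.20 and Tk1 at 0.20 ± 0.11. All 6 Mcm genes were below 0, with a median of -0.14, and the widest interval ran down to -0.74 for Mcm3, so the data do not show that the media act alike on these genes. Within replicates 1, 2 and 3 the median of GCM LN18 minus GCM U87 over the members was -0.05, 0.08 and -0.05.

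Over the 9 arrays, likeness to Mki67 was measured by Pearson's r, as a description over arrays that share the equalized replicate means. The 5 closest genes, of which 2 are members, were Cks2, a subunit of cyclin-dependent kinase complexes (0.993), the kinesin Kif20b (0.988), Ccna2 (0.986), Cenpe (0.985) and Dis3, a ribonuclease of the RNA exosome (0.981). Of the other 47 members, 18 (38.3%) had an r above 0.9 with Mki67, against 1.31% of all genes, and the lowest was E2f1 at -0.13. Mki67, Ccna2 and Cenpe all had control replicate 1 as their lowest array.

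Other cell cycle genes, taken from 4 lists of replication, mitosis, G1 and E2F-Rb, and checkpoint and repair genes, gave few calls as well. Of the 157 measured, 3 were called in GCM LN18, where 5.23% of all genes were called, and 1 in GCM U87, where 1.51% were. Of 44 replication genes, 0 were called in either medium, and their medians were 0.09 in GCM LN18 and 0.13 in GCM U87. Of 60 mitosis genes, 1 was called, Cdca2, which targets a phosphatase to chromatin. It measured 5.97, 5.95 and 5.87 in GCM LN18 and 5.58, 5.61 and 5.74 in control, and it rose by 0.29 ± 0.05 in GCM LN18 (adjusted p = 0.0147, but 0.102 with the block). Of 28 G1 and E2F-Rb genes, Tfdp2, a dimer partner of E2F factors, had a log2 fold change of -0.33 ± 0.07 in GCM LN18 and was lower there (adjusted p = 0.0288, but 0.131 with the block), with 5.58, 5.45 and 5.5 in GCM LN18 and 5.92, 5.78 and 5.84 in control. Tfdp2 was not called without control replicate 1 (adjusted p = 0.0869) or 3 (0.0649), or without GCM LN18 replicate 1 (0.0586), 2 (0.110) or 3 (0.0906).

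Of 25 checkpoint and repair genes, Tob1, an antiproliferative protein that restrains entry into S phase, was lower in both media. It measured 5.68, 5.57 and 5.71 in GCM LN18, 5.68, 5.80 and 5.70 in GCM U87, and 6.11, 6.10 and 6.05 in control. No GCM array reached any control array. Its log2 fold change was -0.43 ± 0.05 in GCM LN18 (adjusted p = 0.00298, 0.0334 with the block) and -0.36 ± 0.05 in GCM U87 (adjusted p = 0.0170, but 0.161 with the block). The fits with arrays left out were of groups alone, whose p-values are too small. With equalized means, the remaining arrays of a number still depend on the one left out, so these fits are not independent checks. With any 1 array left out, the value of Tob1 stayed between -0.46 and -0.39 in GCM LN18, where it was called each time. In GCM U87 it stayed between -0.40 and -0.34 and was not called without control replicate 1 (adjusted p = 0.056), control replicate 2 (0.0583), GCM U87 replicate 1 (0.0814) or GCM U87 replicate 3 (0.0734). With a whole replicate number left out, and so fewer arrays, Tob1 in GCM LN18 had an adjusted p of 0.0634 without replicate 1, 0.031 without replicate 2 and 0.0519 without replicate 3, and in GCM U87 of 0.179, 0.0466 and 0.0975. Without replicate 1, no gene of the 4 lists was called in either medium.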

How the data were processed

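Primary microglia of 3 groups, with 3 arrays each, were profiled on Affymetrix MG-430 PM strips, and the design text states that replicates come from separate cortical cultures. The authors deposited a table of 45141 probe sets holding log2 signals that they had already normalized (array medians 3.39 to 3.41, values 1.56 to 12.88). The submitters' notes name limma. The background correction, the normalization and the step that equalized the replicate means are not given in the sources used here. Arrays have no read depth, and their number limits the precision.

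After 104 controls were left out, 28898 probe sets had 1 symbol, 551 had several and 15588 were unnamed here. The brightest probe set over the 9 arrays stood for each gene. Fits used limma 3.58.1 (R 4.3.3) with 1 mean per group and Benjamini-Hochberg adjustment. Values after ± are the fit's SE. In 10 simulations of GCM LN18 against control on 17097 genes with equalized replicate means, 99.8% of 2-fold and 94.1% of smaller changes (0.5 in log2) were recovered and 29.3% of calls were false. With the replicate block these were 99.8%, 91.7% and 5.94%. The changed genes were drawn from all genes, while the members varied more (median SD in control 0.19, against 0.07 over all genes). Read by the brightest probe set on all 9 arrays, no member had a log2 fold change above 0.40. These shares therefore do not tell how many changes in the members would be recovered. Because deposited replicate means are equal, deviations of same-numbered arrays correlate negatively by construction and cannot show whether the numbers pair cultures.

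Members given on every array are those called, the 3 highest and 3 lowest per medium, and Mki67, Top2a, Ccna2, Ccnd1, Ccne1, Cdk1, E2f1, Mcm2 and Pcna. Of other lists, called genes are given. Cdc20, Mcm3 and the dimmer probe sets of Cenpe, Aspm and Rrm2 were added after their values were seen. The members and lists were chosen with earlier results of these data known. Marker lists covered microglia, border and blood macrophages, neurons, astrocytes, fibroblasts and endothelium, and the oligodendrocyte lineage. Promoters are RefSeq's. Alternatives were the fit with a replicate block, trended and robust eBayes, keeping only genes with a log2 of 5 or more on 3 arrays, the mean of a gene's probe sets, only the groups compared, quantile normalization, median centring and each array left out. Leaving out a replicate number, calling any probe set, and the median of the Mcm genes were added after the data were seen. The alternatives other than the block used fits of groups alone.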

Additional observations from a re-analysis of the deposited data

How the results depend on the processing

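Each replicate number holds 1 array of every group, so the replicate block cannot change a log2 fold change, only its error. The members' medians were thus the same by construction (0.17 in GCM LN18, 0.19 in GCM U87 and -0.02 between the media). With the block 0 members were called in each comparison. Under the block, calls in the other 4 cell cycle lists were 1 (Tob1) in GCM LN18 and 0 in GCM U87, against 3 and 1 without it. The share of all genes called under the block was 0.877% in GCM LN18 and 0.0468% in GCM U87. With the mean of a gene's probe sets, 2 members were called in GCM LN18, Kif11 (0.33, adjusted p = 0.00512) and Cenpe (0.49, adjusted p = 0.0242), where 4.71% of all genes were called, and with any probe set 1 was called in each medium, Cenpe. With only genes of a log2 of 5 or more on 3 arrays, fewer genes were tested and 6 genes of the other lists were called in GCM LN18. The share of all genes called in that setting was not counted.

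Leaving out 1 array, the members' median ran from 0.07 (without control replicate 1) to 0.23 in GCM LN18, from 0.10 (without control replicate 1) to 0.26 in GCM U87 and from -0.07 to 0.04 between the media. Leaving out a replicate number, it ran from 0.03 (without replicate 1) to 0.28 in GCM LN18, from 0.03 (without replicate 1) to 0.31 in GCM U87 and from -0.05 to 0.01 between the media. The median of the 6 Mcm genes ran from -0.13 to 0.44 in GCM LN18 and from 0.05 to 0.63 in GCM U87 over these choices, lowest without replicate 1. Members called remained 0 in GCM LN18 and between the media, and were 0 to 1 in GCM U87 (Ttk, 0.48, adjusted p = 0.0473, without control replicate 3, where 1.34% of all genes were called). The other lists had 0 to 6 calls in GCM LN18 and 0 to 2 in GCM U87, with no share of all genes set beside these calls.

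The sign of a member with a small value turned under some settings. With the mean of probe sets Rrm2 was 0.08 in GCM LN18 and E2f1 0.03 in GCM U87, and with median centring Aurkb was 0.00 in GCM U87. Over the arrays or replicate numbers left out, log2 fold changes in GCM LN18 ran from -0.10 to 0.04 for Rrm2, -0.06 to 0.14 for Cdca3, -0.02 to 0.24 for Aurkb, -0.16 to 0.37 for Mcm5, -0.03 to 0.18 for Ccnd1, -0.13 to 0.47 for Mcm2 and -0.05 to 0.06 for Pcna. In GCM U87 they ran from -0.13 to 0.04 for E2f1, -0.03 to 0.30 for Ccne1, -0.04 to 0.16 for Rrm2, -0.00 to 0.29 for Tk1, -0.15 to 0.11 for Cdca3, -0.10 to 0.11 for Aurkb, -0.06 to 0.17 for Ccnd1 and -0.01 to 0.10 for Pcna. The causes were not tested. With 3 arrays a group, the precision is limited by their number, and members near a log2 of 5 are dim.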
